A study of Mus musculus with 10 samples.

Results

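The tumour suppressor p53, encoded by Trp53 in mice, is a transcription factor that raises the expression of a broad group of target genes after DNA damage and other stress. The target genes described here act in cell cycle arrest, cell death, DNA repair, stress metabolism and signalling at the cell surface. They leave out Cdkn1a, Mdm2 and the BCL2 family. All 34 genes were taken by symbol from a list of known p53 targets, chosen with earlier results of these data known. All 34 were found among the 55487 genes of the deposited table of gene levels. Neurons that no longer divide also use this network, where p53 is known for a part in neuronal death after injury. USP7 is a deubiquitinase that removes ubiquitin from p53 and from MDM2, the ubiquitin ligase that marks p53 for degradation, so both the activator and its inhibitor are among its known substrates.

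Total RNA was sequenced from the cerebral cortex of 10 mice at 18 days of age. In the 5 Usp7 cKO; Trp53+/- animals a floxed Usp7 allele (Usp7 fl/fl) had been deleted by NEX-cre, which acts in glutamatergic neurons, so that the other cells of the cortex kept the gene. The 5 Usp7 WT; Trp53+/- animals kept Usp7, and whether they carried Cre is not stated. Both groups had 1 functional Trp53 allele by genotype, and a cortex with 2 is not part of the comparison. Each group had 2 male and 3 female animals by its labels, and the study describes 5 pairs matched by litter and sex. Levels are in TPM, a share of the library's transcripts corrected for gene length. A change is the Usp7 cKO level less the Usp7 WT level on log2(TPM + 0.5), a scale that understates changes of genes with low levels. A gene was called where limma gave a Benjamini-Hochberg adjusted p under 0.05 over all 27580 genes that averaged 0.5 TPM or more. Each library is a separate animal. In bulk tissue, fewer cells of a type and less RNA per cell cannot be told apart.

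The 10 libraries held 42628526 to 51797145 exon bin counts each. Usp7 averaged 36.9 ± 3.96 TPM in Usp7 cKO and 53.9 ± 5.32 TPM in Usp7 WT (SD, n = 5 each), with no overlap of the groups. In 2 libraries the sex-linked RNAs went against the label: Usp7 cKO replicate 1, labelled male, had 116 TPM of Xist, and Usp7 WT replicate 2, labelled female, had 0.0478 TPM of Xist. By replicate, Xist was at 116, 96.5, 130, 0.223 and 111 TPM in Usp7 cKO, against 105, 0.0478, 0.0530, 0.0408 and 129 TPM in Usp7 WT. By this RNA, unlike by the labels, the sexes were not balanced between the genotypes. Labelled sex as covariate does not adjust for that. Library numbers ran in genotype order, so library order and genotype cannot be told apart. Of the marker lists, 10 of 15 glutamatergic neuron markers were lower, and their summed level was 4762 to 5840 TPM in Usp7 cKO and 8055 to 9357 TPM in Usp7 WT. Of the microglia markers, 14 of 18 were lower, with sums of 361 to 407 TPM in Usp7 cKO and 513 to 588 TPM in Usp7 WT. Of 14 GABAergic markers 3 were lower, 2 of 11 astrocyte markers and 1 of 9 oligodendrocyte precursor markers were higher, and none of the 11 oligodendrocyte, 13 vascular or 2 testable immune markers was called. The B cell marker Ms4a1 was under 0.1 TPM.

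Of the 34 p53 target genes, 32 passed the filter on low values, 10 were higher in Usp7 cKO, 5 were lower and 17 were not called. Eda2r and Gdf15 fell under the filter. The 15 called genes were 46.9% of the 32, beside 13.9% of all genes tested. The higher genes were 31.25% of the 32, beside 9.22% of all genes, and the lower genes were 15.6%, beside 4.67%. As the genes were chosen with earlier results of these data known, these shares describe the list and are no independent support. Of all 32, 18 had a positive change and 14 a negative one, and their median change was 0.13 on the log2 scale, beside 0.06 for all genes tested. In 12 of the 15 called genes the 2 groups did not overlap in any library (37.5% of the 32, beside 12.8% of all genes), 8 of them higher and 4 lower. All 15 kept the sign of their change among the animals labelled male and among those labelled female. These libraries also gave the calls, and where the groups do not overlap the sign cannot differ, so this is no separate support. Without both libraries whose sex went against the label, 5 were called higher and 5 lower. The share of all genes called in that smaller fit is not given here, so a general loss of calls cannot be told apart from one in these genes. On TPM rescaled by size factors, which moved the median of all genes by -0.06, 10 were called higher, beside 9.6% of all genes, and 7 lower, beside 10.9%. The parts of the lower neuronal and microglial markers in these changes were not tested.

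**Figure D1:**
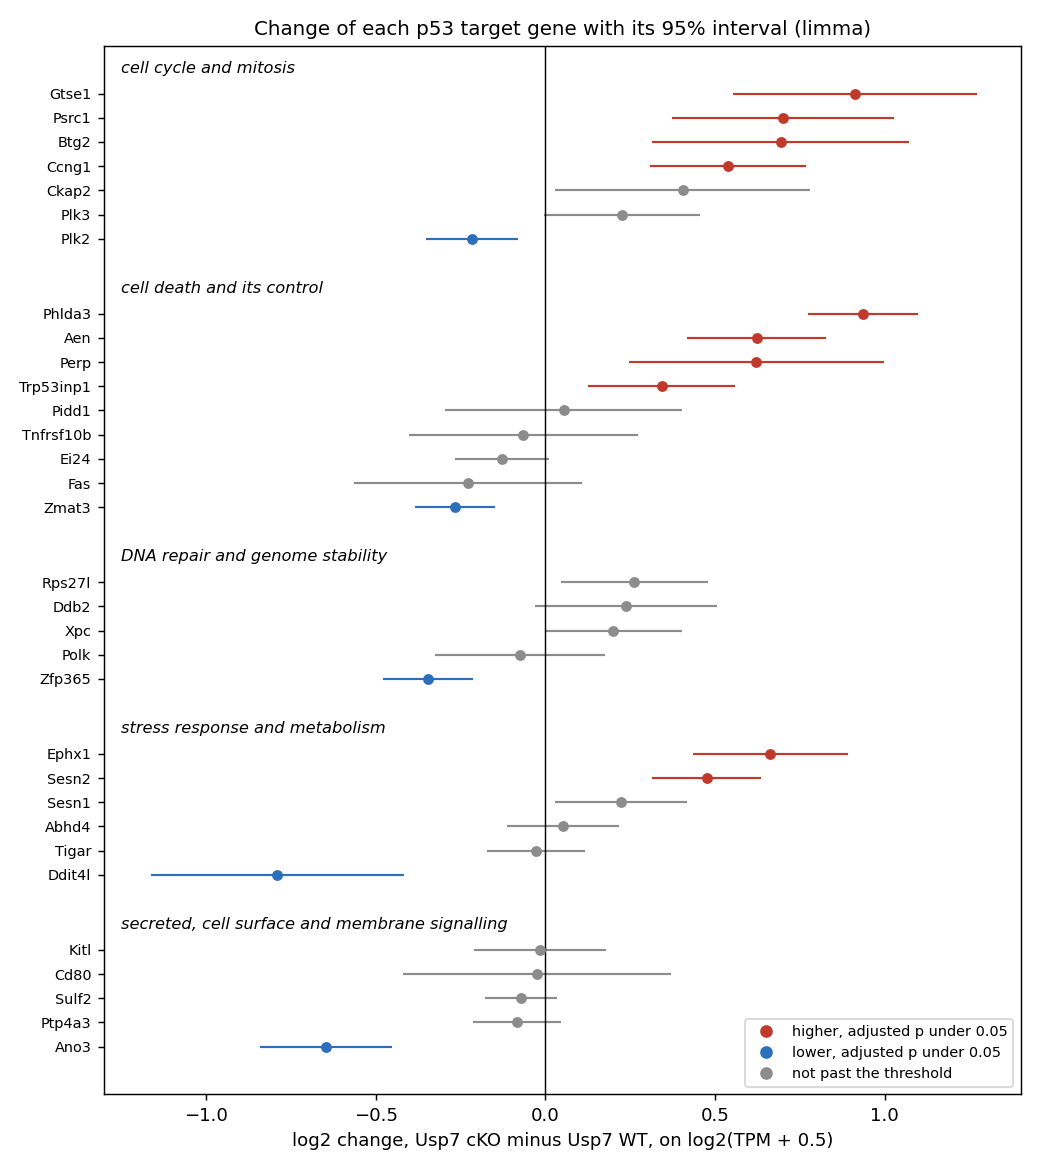
Change of each of the 32 tested p53 target genes in log2(TPM + 0.5), Usp7 cKO minus Usp7 WT, with its 95% interval from limma, grouped by role. The 10 genes called higher are red, the 5 called lower are blue, and the 17 that were not called are grey. Each of the 5 role groups holds 1 gene called lower, and the 10 called higher fall into 3 of the 5 groups.

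p53 binds DNA as a tetramer, and its consensus site is a pair of adjacent decamers, each with a C and a G at its core. RefSeq promoter windows of 300 bases, 250 before and 50 after a start, were found for 27 of the 34 genes (build GRCm38.p6). They were searched for the p53 consensus of 20 bases with no spacer, with the C and G of both decamers fixed and mismatches counted at the other positions. Sequence outside the windows was not searched, so many mismatches here do not mean that a gene lacks a site. The consensus is its own reverse complement, so 1 strand covers both. With at most 1 mismatch it was found in 3 of the 27 genes (11.1%), beside 0.0814% of 27025 genes with a window. With at most 2 it was found in 6 (22.2%), beside 0.392% of genes, and with at most 3 in 9 (33.3%), beside 1.63%. The genes were chosen as known p53 targets, so these shares describe the list. The 9 matches are shown because they are the sequences by which these genes can be compared, in the direction of the gene, with the core C and G of each decamer in capitals. The first 3 have 1 mismatch, the next 3 have 2 and the last 3 have 3.
Ccng1, chr11:40755462-40755481, minus strand: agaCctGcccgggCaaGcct
Gtse1, chr15:85859945-85859964, plus strand: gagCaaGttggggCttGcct
Rps27l, chr9:66946296-66946315, plus strand: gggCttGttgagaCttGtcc
Cd80, chr16:38458822-38458841, plus strand: gaaCagGcctggaCaaGtca
Ckap2, chr8:22186003-22186022, minus strand: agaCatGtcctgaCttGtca
Zfp365, chr10:67912706-67912725, minus strand: agaCtaGgctgggCaaGact
Aen, chr7:78895937-78895956, plus strand: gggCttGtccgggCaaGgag
Sesn1, chr10:41887266-41887285, plus strand: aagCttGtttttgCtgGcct
Tigar, chr6:127109746-127109765, minus strand: ggtCtaGctctggCaaGact

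The near matches did not fall on one side of the comparison. Of the 6 genes with at most 2 mismatches, Ccng1 and Gtse1 were higher in Usp7 cKO, Zfp365 was lower, and Ckap2, Rps27l and Cd80 were not called. Of those with 3 mismatches, Aen was higher, and Sesn1 and Tigar were not called. Ccng1 and Zfp365, 1 called higher and 1 called lower, are set side by side upstream of their starts, with the matching 20 bases in capitals. The Ccng1 match lies 195 to 176 bases before the RefSeq start, and that of Zfp365 63 to 44 bases before it. The Zfp365 stretch runs up to its RefSeq start, while the Ccng1 stretch stops where the GENCODE gene begins, short of the RefSeq start from which its offsets are counted.
Ccng1, chr11:40755312-40755536, minus strand: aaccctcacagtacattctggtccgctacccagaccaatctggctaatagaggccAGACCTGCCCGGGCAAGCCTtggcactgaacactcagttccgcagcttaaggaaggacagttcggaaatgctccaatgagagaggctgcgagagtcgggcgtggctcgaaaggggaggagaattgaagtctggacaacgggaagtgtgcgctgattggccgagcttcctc
Zfp365, chr10:67912663-67912912, minus strand: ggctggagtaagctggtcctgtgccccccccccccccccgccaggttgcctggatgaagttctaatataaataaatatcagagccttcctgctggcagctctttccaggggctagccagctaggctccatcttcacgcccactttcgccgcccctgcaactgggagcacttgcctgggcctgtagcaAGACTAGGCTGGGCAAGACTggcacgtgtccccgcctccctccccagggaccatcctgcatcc

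**Figure D2:**
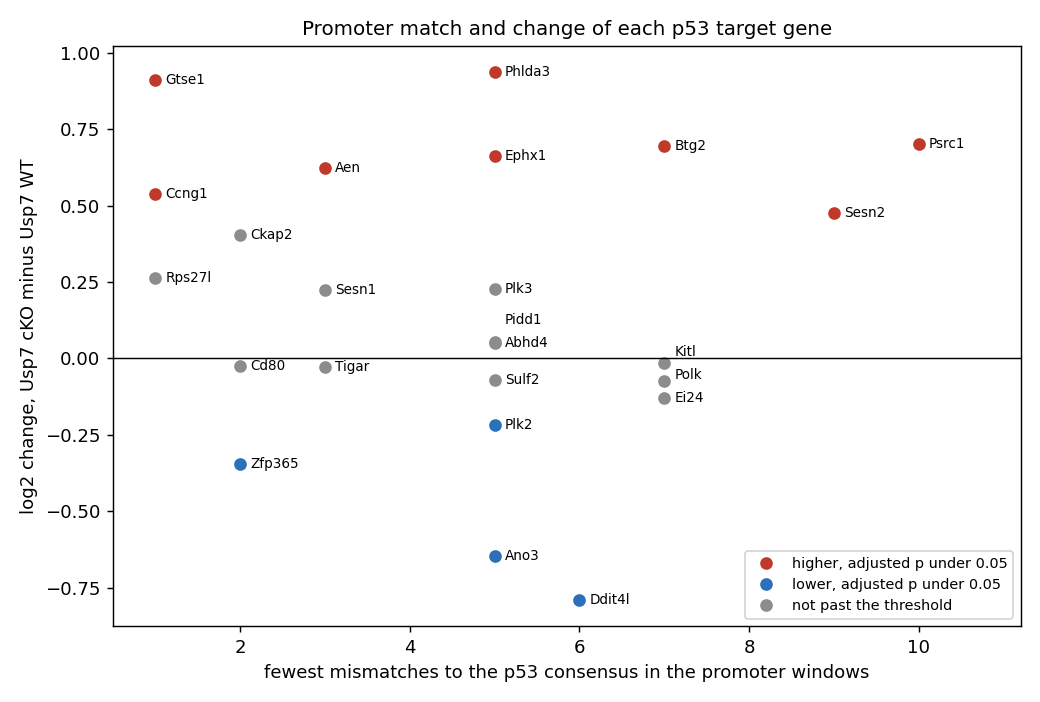
Fewest mismatches to the p53 consensus in a gene's RefSeq promoter windows (horizontal) against its log2 change, Usp7 cKO minus Usp7 WT (vertical), for the p53 target genes with a window, a tested level and a stretch with the 4 core bases. Among the genes with at most 3 mismatches are called higher, called lower and uncalled ones.

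Of the 7 genes that act in the cell cycle and mitosis, 4 were higher in Usp7 cKO (Ccng1, Gtse1, Psrc1 and Btg2), 1 was lower (Plk2) and 2 were not called. Ccng1 encodes cyclin G1, which binds protein phosphatase 2A and acts on MDM2. It had 59.7, 57.3, 64.9, 50.7 and 43.5 TPM in Usp7 cKO, against 33.2, 36.6, 42.1, 38.5 and 37.5 TPM in Usp7 WT. Every Usp7 cKO library was above every Usp7 WT library, with replicate 5 the lowest of its group, and the log2 change was 0.54 (SE 0.104, limma adjusted p 0.00718). Gtse1, a microtubule-binding protein of the dividing cell that also moves p53 out of the nucleus, had 1.91, 2.07, 2.52, 2.25 and 2.82 TPM in Usp7 cKO, against 0.729, 1.17, 1.32, 0.965 and 0.822 TPM in Usp7 WT. The groups did not overlap, and its mean was 2.31 ± 0.364 TPM in Usp7 cKO and 1.001 ± 0.243 TPM in Usp7 WT (SD, n = 5 each; log2 change 0.91, SE 0.161, limma adjusted p 0.00461). Psrc1, a spindle protein, had 10.1, 9.92, 11.1, 7.52 and 7.18 TPM in Usp7 cKO, against 6.72, 4.95, 5.45, 4.27 and 5.76 TPM in Usp7 WT. Its groups were apart, though replicates 4 and 5 of Usp7 cKO came close to replicate 1 of Usp7 WT (log2 change 0.70, SE 0.147, limma adjusted p 0.0110). With both libraries of discordant sex left out, the log2 change was 0.51 for Ccng1 (limma adjusted p 0.0530) and 0.56 for Psrc1 (limma adjusted p 0.0735), over 8 libraries.

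Btg2, an antiproliferative protein that promotes shortening of mRNA tails, is also induced by neuronal activity. It had 26.0, 22.4, 27.8, 31.9 and 20.8 TPM in Usp7 cKO, against 14.1, 11.8, 13.2, 25.2 and 16.3 TPM in Usp7 WT. The groups overlapped through Usp7 WT replicate 4, which stood above replicates 2 and 5 of Usp7 cKO, and the log2 change was 0.69 (SE 0.169, limma adjusted p 0.0232). The call was lost without Usp7 cKO replicate 3 (adjusted p by limma 0.0557) or replicate 4 (0.0604) and without Usp7 WT replicate 1 (0.0534) or replicate 2 (0.0581). It was also lost without both libraries of discordant sex (limma adjusted p 0.0845). Plk2, a polo-like kinase that in neurons acts at synapses, was the fall of this group, with 145, 131, 123, 136 and 127 TPM in Usp7 cKO against 147, 138, 147, 171 and 167 TPM in Usp7 WT. Its ranges overlapped, and the change was small (log2 change -0.22, SE 0.0612, limma adjusted p 0.0411). That call was lost without any 1 of the 5 Usp7 cKO libraries and without Usp7 WT replicate 1, 4 or 5, with adjusted p by limma between 0.0535 and 0.0933. Ckap2, a spindle protein, had a log2 change of 0.40 (limma adjusted p 0.149) and Plk3, another polo-like kinase, of 0.23 (limma adjusted p 0.183). Plk3 overlaps Tctex1d4 on the other strand, and without a stated counting strand their reads cannot be told apart.

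**Figure D3:**
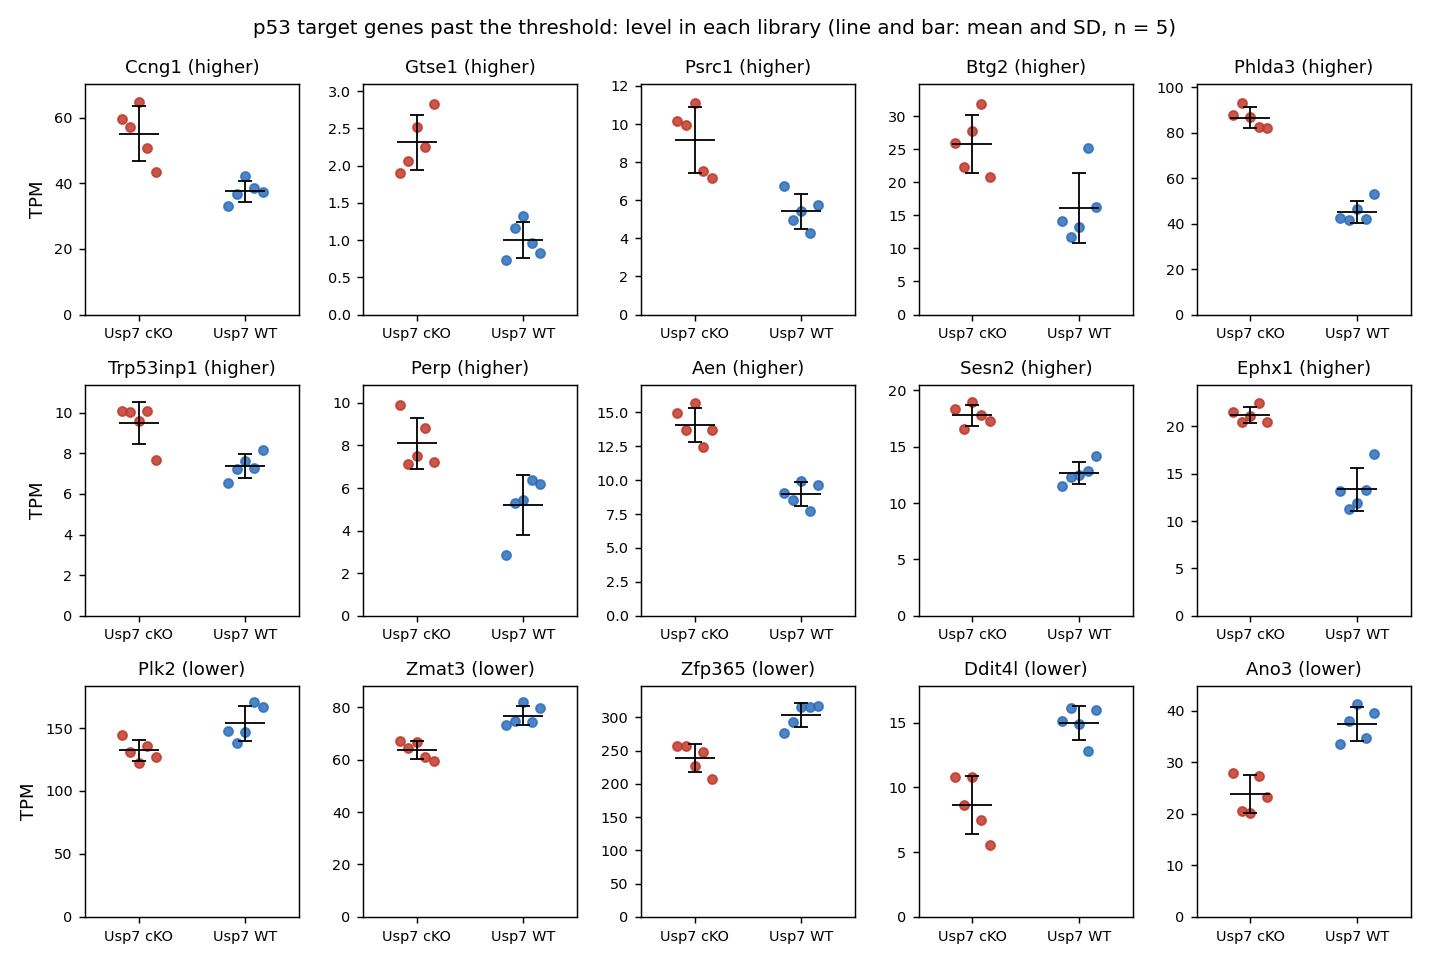
Level in TPM of the 15 called p53 target genes in each library, with Usp7 cKO left of Usp7 WT in each panel; lines and bars are the mean and SD of 5 libraries. The groups overlap in Btg2, Trp53inp1 and Plk2 and are apart in the other 12 genes.

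The cell death genes were 4 higher (Phlda3, Aen, Perp and Trp53inp1), 1 lower (Zmat3) and 4 not called of 9 tested. Phlda3, a small protein that competes with the kinase AKT for membrane lipids, had the smallest adjusted p of the p53 target genes. It had 87.9, 93.1, 87.0, 82.5 and 82.1 TPM in Usp7 cKO, against 42.5, 41.7, 46.3, 42.2 and 53.1 TPM in Usp7 WT. The lowest Usp7 cKO library was well above the highest Usp7 WT library, and the means were 86.5 ± 4.52 TPM in Usp7 cKO and 45.1 ± 4.81 TPM in Usp7 WT (SD, n = 5 each; log2 change 0.94, SE 0.0726, limma adjusted p 2.85e-05). Aen, an exonuclease that takes part in DNA breakdown during apoptosis, had 15.0, 13.7, 15.7, 12.4 and 13.7 TPM in Usp7 cKO, against 9.07, 8.54, 9.94, 7.69 and 9.68 TPM in Usp7 WT. Its groups did not overlap (log2 change 0.62, SE 0.0923, limma adjusted p 0.00170). Perp, a membrane protein of cell contacts that takes part in p53-dependent apoptosis, had 9.88, 7.12, 7.49, 8.80 and 7.20 TPM in Usp7 cKO, against 2.85, 5.28, 5.43, 6.38 and 6.17 TPM in Usp7 WT. Its groups were apart, with Usp7 WT replicate 1 the lowest (log2 change 0.62, SE 0.169, limma adjusted p 0.0355). The Perp call was lost without any 1 of the 5 Usp7 cKO libraries and without Usp7 WT replicate 3 or 4, with adjusted p by limma between 0.0559 and 0.0803. It was also lost without both libraries of discordant sex (limma adjusted p 0.0990), without sex as covariate (0.0536) and with no filter on low values (0.0585).

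Trp53inp1, a nuclear stress protein that acts with p53 and in autophagy, had 10.1, 10.03, 9.61, 10.1 and 7.67 TPM in Usp7 cKO, against 6.55, 7.22, 7.60, 7.26 and 8.16 TPM in Usp7 WT. Usp7 cKO replicate 5 lay inside the Usp7 WT range, and the other 4 lay above it (log2 change 0.34, SE 0.0974, limma adjusted p 0.0417). The call was lost without any 1 of replicates 1 to 4 of either group, with adjusted p by limma between 0.0755 and 0.102. It was also lost without both libraries of discordant sex (limma adjusted p 0.149), with Xist as covariate (0.0607) and with no filter on low values (0.0606). Zmat3, a zinc-finger protein that binds RNA and regulates its splicing and stability, was lower. It had 67.2, 64.5, 66.9, 61.1 and 59.4 TPM in Usp7 cKO, against 73.4, 74.8, 82.03, 74.4 and 79.6 TPM in Usp7 WT. Every Usp7 cKO library was below every Usp7 WT library, though the change was small (log2 change -0.27, SE 0.0531, limma adjusted p 0.00847).

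The other tested death genes did not pass the threshold. The death receptors Fas and Tnfrsf10b had log2 changes of -0.23 (95% interval -0.56 to 0.11) and -0.07 (-0.40 to 0.27). Pidd1, the scaffold of a caspase-2 activating complex, had 0.05 (-0.30 to 0.40), and Ei24, a protein of the endoplasmic reticulum, had -0.13 (-0.27 to 0.01). Ei24 had 40.2 to 41.1 TPM in all 5 Usp7 cKO libraries, a range inside which 1 of the 5 Usp7 WT libraries fell, while the Usp7 WT range was 40.7 to 50.2 TPM. On rescaled TPM Ei24 was called lower (log2 change -0.19, limma adjusted p 0.0190), as it was by edgeR on summed bin counts (-0.18, adjusted p 0.0112). Eda2r, a receptor of the ectodysplasin family, was near the limit of detection, with 0.185, 0.130, 0.139, 0.0550 and 0.0602 TPM in Usp7 cKO against 0.0212, 0.0583, 0.0646, 0.0574 and 0.0478 TPM in Usp7 WT. These levels rest on 32 bin counts over the 5 Usp7 cKO libraries and 18 over the 5 Usp7 WT libraries (two-sided exact permutation p 0.0635, where the smallest possible is 0.00794). Without Usp7 cKO replicate 4 the two-sided exact permutation p was 0.0317. That omission takes out the lowest Usp7 cKO library, and with fewer libraries the smallest possible p is larger.

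Of the 5 genes of DNA repair and genome stability, none was called higher and 1, Zfp365, was lower. Zfp365, a zinc-finger protein that binds DISC1 and whose human counterpart acts in genome stability, had the highest level of the 34 genes. It had 257, 257, 227, 247 and 208 TPM in Usp7 cKO, against 276, 293, 315, 316 and 318 TPM in Usp7 WT. The groups did not overlap, and the means were 239 ± 21.2 TPM in Usp7 cKO and 304 ± 18.3 TPM in Usp7 WT (SD, n = 5 each; log2 change -0.35, SE 0.0596, limma adjusted p 0.00397). Xpc and Ddb2, which recognise damage for nucleotide excision repair, had log2 changes of 0.20 (95% interval 0.00 to 0.40, limma adjusted p 0.182) and 0.24 (-0.03 to 0.50, limma adjusted p 0.228). Polk, a polymerase that copies past damaged bases, had -0.07 (-0.32 to 0.18). Ddb2 overlaps Acp2 on the other strand, and it was called higher by edgeR on summed bin counts (log2 change 0.33, adjusted p 0.0226). Rps27l, a ribosomal protein variant with a near match to the p53 consensus, had 11.3, 12.3, 13.6, 11.1 and 12.7 TPM in Usp7 cKO, against 10.03, 9.61, 9.10, 8.56 and 13.6 TPM in Usp7 WT. Usp7 WT replicate 5 stood as high as the highest Usp7 cKO library, while the other 4 Usp7 WT libraries lay below all Usp7 cKO libraries (log2 change 0.26, SE 0.0972, limma adjusted p 0.106). Without Usp7 WT replicate 5 the log2 change of Rps27l was 0.35 and the limma adjusted p 0.0104. With any other single library left out the limma adjusted p was 0.130 to 0.211, and with Xist as covariate it was 0.420.

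The 6 genes of stress response and metabolism held 2 higher, Sesn2 and Ephx1, and 1 lower, Ddit4l. Sesn2, a sestrin that senses leucine and restrains the growth kinase complex mTORC1, had 18.4, 16.6, 18.96, 17.8 and 17.3 TPM in Usp7 cKO, against 11.5, 12.4, 12.5, 12.9 and 14.2 TPM in Usp7 WT. Its groups did not overlap (log2 change 0.48, SE 0.0720, limma adjusted p 0.00192). Ephx1, the microsomal epoxide hydrolase of detoxification, had 21.6, 20.5, 21.1, 22.4 and 20.4 TPM in Usp7 cKO, against 13.2, 11.24, 11.9, 13.3 and 17.1 TPM in Usp7 WT. The groups were apart, with Usp7 WT replicate 5 the highest of its group (log2 change 0.66, SE 0.103, limma adjusted p 0.00222). Ddit4l, which like the sestrins restrains mTORC1, was lower, with 10.8, 8.67, 10.8, 7.49 and 5.57 TPM in Usp7 cKO against 15.1, 16.1, 14.9, 12.8 and 15.9 TPM in Usp7 WT. No libraries overlapped, and the mean was 8.67 ± 2.24 TPM in Usp7 cKO and 15.0 ± 1.31 TPM in Usp7 WT (SD, n = 5 each; log2 change -0.79, SE 0.168, limma adjusted p 0.0118). Sesn1, the paralogue of Sesn2, had a log2 change of 0.22 (95% interval 0.03 to 0.42, limma adjusted p 0.125). Tigar, a phosphatase that lowers glycolysis, had -0.03 (-0.17 to 0.12), and the lipid hydrolase Abhd4 had 0.05 (-0.11 to 0.22).

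Of the 6 genes of secreted, cell surface and membrane signalling, 5 were tested and Ano3 alone was called, lower in Usp7 cKO. Ano3, a membrane protein of the anoctamin family linked to dystonia in humans, had 27.97, 20.6, 20.1, 27.3 and 23.4 TPM in Usp7 cKO, against 33.5, 38.1, 41.2, 34.7 and 39.5 TPM in Usp7 WT. The groups did not overlap (log2 change -0.65, SE 0.0876, limma adjusted p 0.000997). Muc15 overlaps Ano3 on the other strand. Kitl, the ligand of the receptor KIT, had a log2 change of -0.02 (95% interval -0.21 to 0.18), and Cd80, a ligand that costimulates T cells, had -0.02 (-0.42 to 0.37). Sulf2, which removes sulfate from heparan sulfate outside the cell, had -0.07 (-0.18 to 0.04), and the phosphatase Ptp4a3 had -0.08 (-0.21 to 0.05). Ptp4a3 was called lower on rescaled TPM (log2 change -0.15, limma adjusted p 0.0399). Gdf15, a stress cytokine, had 0.807, 0.482, 0.111, 0.0292 and 0.510 TPM in Usp7 cKO, against 0.101, 0.402, 0, 0.182 and 0.190 TPM in Usp7 WT. Its libraries overlapped (26 bin counts over the Usp7 cKO libraries and 15 over the Usp7 WT libraries, two-sided exact permutation p 0.214).

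In most called genes the change had the same direction in all bins that could be compared. The genes were called on these same libraries, so their bins are no separate support. DEXSeq counting bins cut the annotated exons of a gene at each boundary, and bins with a mean count of at least 10 were compared in CPM, which scales counts to the library total. All bins had a higher mean in Usp7 cKO in Ccng1 (10 of 10), Psrc1 (16 of 16), Aen (16 of 16), Ephx1 (12 of 12), Sesn2 (10 of 10), Phlda3 (3 of 3), Perp (3 of 3) and Btg2 (2 of 2), and in Trp53inp1 6 of 7 did. All 26 bins of Ano3 and all 4 of Ddit4l were lower, as were 12 of 13 in Zmat3, 7 of 9 in Zfp365 and 22 of 25 in Plk2. Gtse1 had no bin with enough counts. Within Psrc1 the log2 ratios ran from 0.50 to 1.38, and within Trp53inp1 from -0.11 to 0.83. Of the genes not called by TPM, all bins were also higher in Ddb2 (11, median log2 ratio 0.39) and Sesn1 (14, 0.27). The same held in Rps27l (6, 0.31) and Ckap2 (1 bin, 1.18), while the only bin of Tnfrsf10b and of Cd80 was lower. The other uncalled genes with such bins had bins in both directions.

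**Figure D4:**
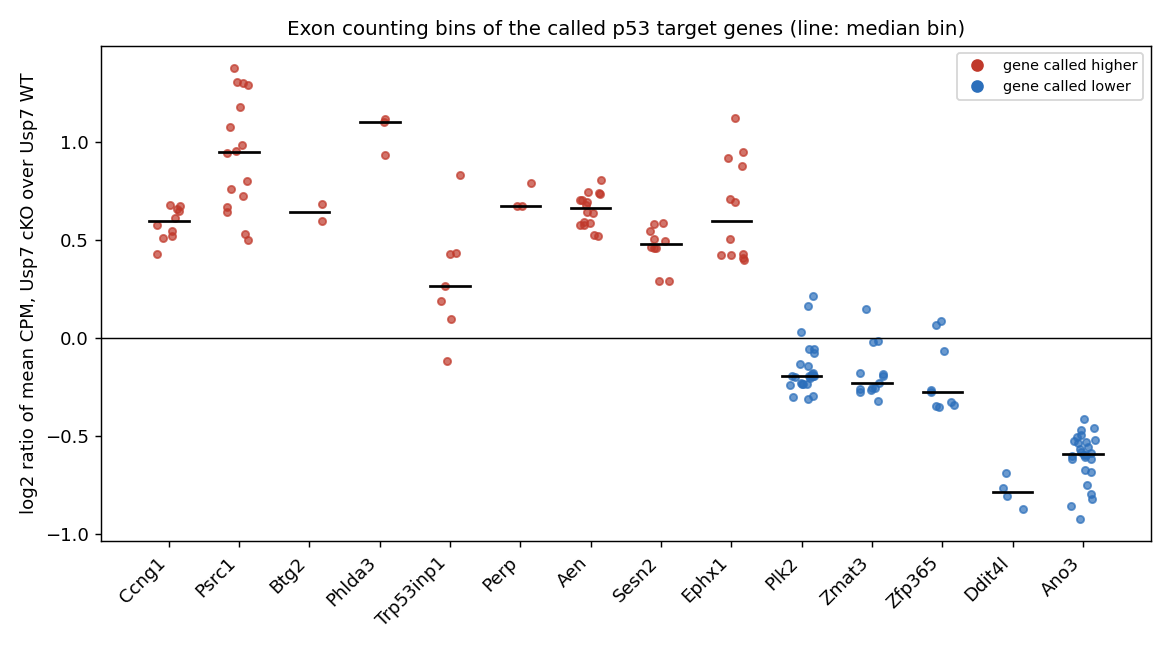
Log2 ratio of mean CPM (counts scaled to the library total), Usp7 cKO over Usp7 WT, for each exon counting bin with a mean count of at least 10, in the 14 called p53 target genes that have such bins; the line is the median bin. All bins of 8 of the higher genes lie above 0, and all bins of Ano3 and Ddit4l lie below it.

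Exon usage, the level of a bin relative to its gene, was not called in any of the 26 p53 target genes that could be tested over 353 bins (edgeR Simes p adjusted over 13954 genes, beside 2.85% of all genes called). At an unadjusted Simes p under 0.05 there were 2 such genes, and the smallest adjusted Simes p by edgeR was 0.215, in Zmat3. In the authors' deposited table, 1 of 420 bins of these genes had an adjusted p under 0.05, a bin of Zmat3 with a log2 fold change of usage of 0.36 and an adjusted p of 0.0181. The share of all bins of that table under this threshold is not given here, so 1 of 420 cannot be set against it. The Zmat3 bin lies at chr3:32362202-32365165 (GRCm38), is 2964 bases long and belongs to an exon of a retained-intron transcript. It had 116, 137, 125, 179 and 134 counts in Usp7 cKO, against 134, 125, 126, 132 and 130 counts in Usp7 WT, while the gene as a whole was lower. Its share of the gene's bin counts was 1.92 ± 0.213% in Usp7 cKO and 1.48 ± 0.135% in Usp7 WT (SD, n = 5 each), with a relative log2 change of 0.26 by edgeR (adjusted p 0.125). Intron usage was not called in any of 13 clusters of 11 of the genes (edgeR, beside 0.22% of all clusters), 1 of which had an unadjusted Simes p under 0.05. That cluster is in Sulf2, where the intron chr2:166132854-166154735 had 18, 12, 9, 6 and 11 counts in Usp7 cKO, against 0, 0, 4, 2 and 8 counts in Usp7 WT. Those counts are low and the groups overlap (relative log2 change 1.44, edgeR adjusted p 0.388).

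The effect of genotype was also compared between the labelled sexes. No p53 target gene had a product of genotype and labelled sex past the threshold (limma, beside 0.00725% of all genes), and none had an unadjusted p under 0.05. The smallest unadjusted p, from the limma fit, was 0.0590 for Ano3, with a product of 0.33 in log2, male minus female. With 2 male and 3 female animals a group by the labels, and the label contradicted in 1 library of each group, this test had little precision. It compared labelled sexes, which in those libraries are not the sexes that the RNAs show.

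Other genes of the p53 pathway were read from lists that do not share members with the 34. Of 22 tested genes of the p53 core and its regulators, 2 were higher and 2 lower, with a median log2 change of 0.01. Over all genes tested, 9.22% were higher and 4.67% lower, and the higher core genes came near that share. Trp53 itself averaged 12.6 ± 1.96 TPM in Usp7 cKO and 12.5 ± 1.42 TPM in Usp7 WT (SD, n = 5 each; limma adjusted p 0.990), and Mdm2 23.8 ± 1.99 TPM in Usp7 cKO and 24.4 ± 2.59 TPM in Usp7 WT (limma adjusted p 0.827). Cdkn1a, the cell cycle inhibitor p21, averaged 36.7 ± 3.95 TPM in Usp7 cKO and 17.8 ± 1.30 TPM in Usp7 WT (log2 change 1.02, limma adjusted p 3.71e-05). Cdkn2a was also called higher (log2 change 1.03, limma adjusted p 0.0414), with 1.26 ± 0.600 TPM in Usp7 cKO and 0.352 ± 0.250 TPM in Usp7 WT. Its Usp7 WT mean was under the filter of 0.5 TPM, so it was tested only through its Usp7 cKO level, and its groups overlapped. Setd7, a lysine methyltransferase, was lower (-0.37, limma adjusted p 0.00428). Of 11 tested BCL2 family and apoptosome genes, 5 were higher and none lower, with a median of 0.23. Among them were the BH3-only genes Pmaip1 (log2 change 2.26, limma adjusted p 2.11e-05) and Bbc3 (0.78, limma adjusted p 0.000737). Of 28 other tested p53 targets, 7 were higher and 2 lower, with a median of 0.05, and Cdc42bpg (0.95), Dcxr (0.77) and Trp53i11 (0.29) were among the higher. The 34 genes, with 10 higher and 5 lower, held falls as well as rises. So did the lists of core genes and of other targets, and the genes tested as a whole. No test of a difference between the lists was made.

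**Figure D5:**
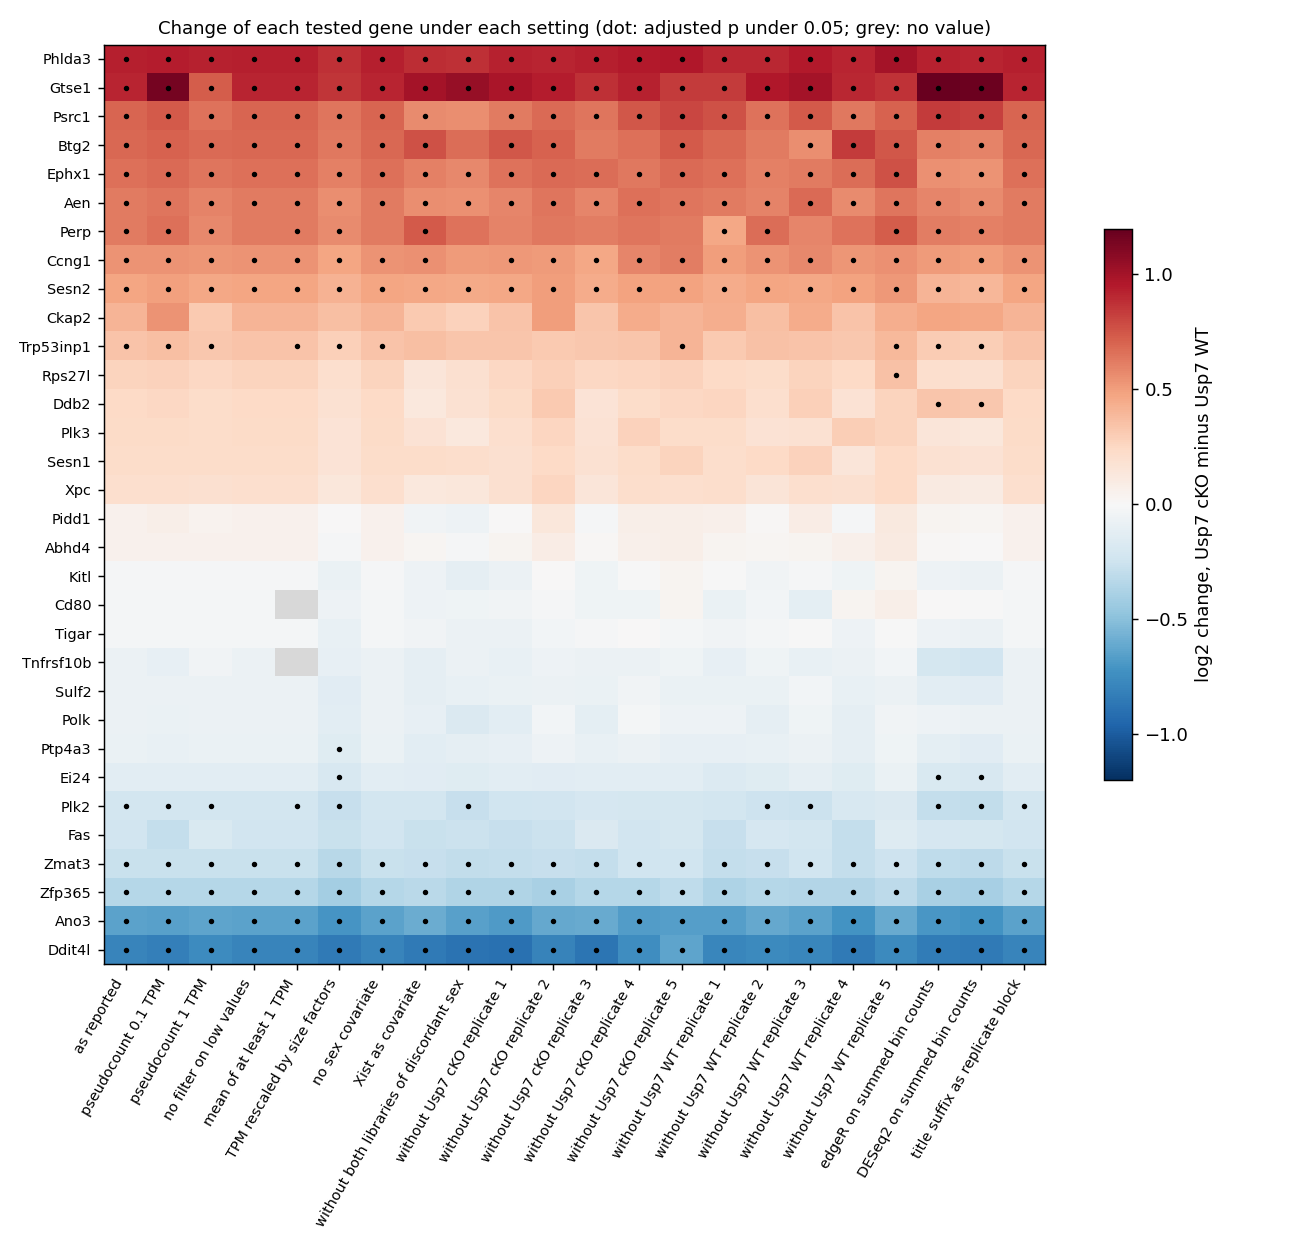
Log2 change, Usp7 cKO minus Usp7 WT, of the 32 tested p53 target genes (rows, ordered by their change) under the reported fit and 21 alternatives (columns); a dot marks an adjusted p under 0.05 and grey a gene that the stricter filter left out. Of the 15 called genes, 9 keep their dot in every column and none changes its colour from red to blue or back.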

How the data were processed

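The authors deposited gene levels as TPM, per the file headers, and 287 repeated lines of the table were counted once. The exon bin and intron values are raw counts, per the deposited file headers, with the authors' DEXSeq log2 fold change, p-value and adjusted p-value beside each bin. The submitters' processing notes name STAR 2.7.9a, featureCounts 2.0.3, Subread, SAMtools 1.10 and GRCm38. The counting strand is not given in the sources used here. All intron counts of Usp7 WT replicate 1 were even and were halved. Between 15.1 and 25.2% of TPM was small and structural RNA, whose level moves that of all other genes, and TPM keeps no depth. Intron counts used came to 3388310 to 4367711 per library, and counting limits cover counting error only.

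Gene levels were tested with limma 3.58.1 (trend, robust; R 4.3.3) on log2(TPM + 0.5) with labelled sex as covariate, and p-values were adjusted by Benjamini-Hochberg. For usage of exons and introns the test was that of edgeR 4.0.16 (glmQLFit, diffSpliceDGE, TMM; mean counts of at least 10 per bin and 5 per intron). DESeq2 1.42.0 and edgeR on bin counts summed per gene were alternatives. Single values were compared by exact permutation over 252 regroupings (scipy 1.17.1). The limma test of gene levels and the edgeR test of exon usage were first tested on simulated data. Intron usage, the product of genotype and sex, and the fits on summed bin counts were not simulated. Positions come from GENCODE on GRCm38 and promoters from RefSeq on GRCm38.p6. The p53 target genes, pathway lists and marker lists were chosen with earlier results of these data known. All 34 genes are named, those called with their values per library; outside them the text names Usp7, Trp53, Mdm2, Cdkn1a and up to 3 called genes of each pathway list with the smallest p, of which 1 is not reported here. Reads of 12 of the 34 genes may be shared with a gene that overlaps them.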

Additional observations from a re-analysis of the deposited data

Results flagged for a closer look

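Trp53inp1 in Usp7 cKO replicate 5 stood at 7.67 TPM, apart from the other 4 Usp7 cKO libraries at 9.61 to 10.1 TPM. Its gap to the nearest of them was 0.791 of the group's whole range, over the critical value of Dixon's test for 5 samples (0.71). It was the 1 value so marked among 68 groups of libraries examined, 34 genes in each genotype, and chance marks about 1 in 20 groups.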

How the results depend on the processing

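Of the 15 called genes, 9 (Aen, Ano3, Ddit4l, Ephx1, Gtse1, Phlda3, Sesn2, Zfp365 and Zmat3) kept their call under all 21 alternatives, and none of the 15 changed direction. The other 6 (Btg2, Ccng1, Perp, Plk2, Psrc1 and Trp53inp1) lost it under at least 1. Without both libraries of discordant sex, which leaves fewer samples, 5 genes were called higher. With Xist as covariate 9 were called higher and 4 lower. Leaving out single libraries gave 7 to 11 higher and 4 to 5 lower, and edgeR and DESeq2 on summed bin counts both gave 11 higher and 6 lower. For the alternatives other than rescaled TPM, the share of all genes called is not given here. The authors' deposited DEXSeq table called 1 gene for exon usage, where edgeR called none, and the cause was not tested. The share of all bins called by DEXSeq is not given here either. Of the 17 uncalled genes, 4 (Ddb2, Ei24, Ptp4a3 and Rps27l) were called under an alternative, and 5 changed the sign of a change near 0. Pidd1 had log2 changes of -0.044 with Xist as covariate, -0.057 without both discordant libraries and -0.017 to 0.13 with single libraries left out. Abhd4 had -0.010 on rescaled TPM and -0.011 without both discordant libraries, and Cd80 had 0.0033 by edgeR. With single libraries left out, Cd80 ranged from -0.12 to 0.073, Kitl from -0.068 to 0.033 and Tigar from -0.067 to 0.0062. The difference, Usp7 cKO minus Usp7 WT, ranged from 0.0462 to 0.0786 TPM in Eda2r and from 0.108 (without Usp7 cKO replicate 1) to 0.302 TPM (without Usp7 cKO replicate 4) in Gdf15. The labels do not name which animals form the 5 pairs, so these could not be fitted; sample titles end in a number of 1 to 3, whose meaning they do not give. With that number as a block, an alternative chosen after seeing the data, 8 genes were called higher and 5 lower, with Perp (limma adjusted p 0.0563) and Trp53inp1 (0.0641) lost, and no exon or intron usage was called. Deviations from the genotype mean correlated across genes at -0.016 to 0.092 between libraries of the 2 genotypes with the same number (9 pairs) and at -0.093 to 0.034 with another (16 pairs). Low counts limit Eda2r, Gdf15 and the introns.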
